A study of Danio rerio with 3 samples.

Results

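A set of 9 genes of the immediate early response and of the transcription factor complex AP-1 were followed on 3 zebrafish arrays, namely fosl1b, junba, junbb, jun, atf3, egr1, dusp1, rgs2 and ccn2a. Each probe set that the platform annotation assigns to 1 of these genes alone was taken, which gave 12 of the 15502 probe sets other than array controls. Jun, egr1 and rgs2 have 2 probe sets each, the other 6 genes have 1, and no probe set named a member together with another gene. Some of the genes were picked from the differences measured on these same arrays, and the selection was partly based on the same comparisons given here. Their values are therefore a description, and no test was made.

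The RNA came from scales of zebrafish (Danio rerio), small plates of dermal bone, covered by epidermis, on which osteoblasts build matrix and osteoclasts resorb it. One array held scales treated with 3-hydroxybenzo[c]phenanthrene (3-OHBcP) at 1 nM. Another held scales treated at 1 nM with the parent hydrocarbon benzo[c]phenanthrene (BcP), which is polycyclic and aromatic and lacks the hydroxyl group at position 3, and the last held control scales. All scales stood for 6 h at 15 °C in L-15 medium, and with 1 array per group there is no spread between replicates. The strain and age of the fish, the number of fish or scales behind each RNA sample and any solvent in the control medium are not stated in the labels.

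Immediate early genes are switched on within minutes of a stimulus, without new protein synthesis, and many of their products are transcription factors or brakes on the signal that induced them. Jun and Fos proteins pair through leucine zippers to form AP-1, which binds DNA and drives a second wave of genes. In mice, the Fos relative Fra-1 and JunB are needed for normal bone formation, and c-Fos is needed for osteoclasts to form. The scales of every group, control included, were plucked from the fish and cultured.

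All 12 probe sets lay above the median level of the array (mean log2 signal 5.35), and the lowest member value on any array was 5.95. The scale tissue label was compared with marker genes. Of 10 osteoblast markers on the array 8 were above that level, as were 4 of 5 osteoclast markers and 9 of 9 epidermal markers. The osteoblast markers sp7 and runx2b and the osteoclast marker csf1ra lay below it. Of other lists, 7 of 7 leukocyte, 3 of 6 muscle, 0 of 4 pigment cell and 1 of 3 erythrocyte markers were above it. The mean log2 signal of the osteoblast markers was 9.29 with 3-OHBcP and 9.31 with BcP, against 9.04 in the control. For 7 leukocyte markers it was 8.29 with 3-OHBcP and 8.55 with BcP, against 8.39 in the control, and for the epidermal markers it was 11.05 and 11.01, against 11.13. The epidermal markers had a median difference of 0 in each comparison, and their lower means came mostly from the claudin genes cldna (7.58 and 7.58, against 8.04) and cldne (8.40 and 8.26, against 8.65). The GAPDH 3' minus 5' log2 difference, which reflects how complete the labelled RNA is, was 2.03 with 3-OHBcP and 2.15 with BcP, against 2.45 in the control. The same measure for actin had another order, at -0.70 with 3-OHBcP and -0.35 with BcP, against -0.47 in the control. The 18 hybridisation spike-in probe sets differed from the control by a median of 0.08 with 3-OHBcP and 0.29 with BcP, and by -0.17 between 3-OHBcP and BcP. The part of these shifts in the member differences was not tested, and in whole scales fewer cells of a type and less RNA per cell cannot be told apart.

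The member farthest from the control was fosl1b, which encodes a zebrafish counterpart of Fra-1, a Fos-family partner of Jun. Its only probe set (Dr.18536.1.A1_at) had a log2 signal of 6.13 on the 3-OHBcP array and 5.95 on the BcP array, against 6.73 on the control array. Both treated arrays were low and lay close together. The log2 difference was -0.60 with 3-OHBcP (1.52-fold lower) and -0.78 with BcP (1.71-fold lower). On the linear scale that is a signal of 70.1 with 3-OHBcP and 62.0 with BcP, against 106 in the control.

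Within 0.5 log2 units of the mean of fosl1b lay 2181 probe sets, fosl1b itself among them. Of these, 7 (0.32%) were at least 1.5-fold lower with 3-OHBcP and 12 (0.55%) with BcP. Some members were picked for differences on these same arrays, so nothing is read from these counts. With 32 added to the linear value before taking log2, the fosl1b differences were -0.44 and -0.56, both short of 1.5-fold (0.58 on the log2 scale). Between the compounds fosl1b differed by 0.18, so that the pair of treated arrays was nearer to each other than either was to the control. Both differences from the control subtract the same single control array, so they are not separate evidence.

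**Figure D1:**
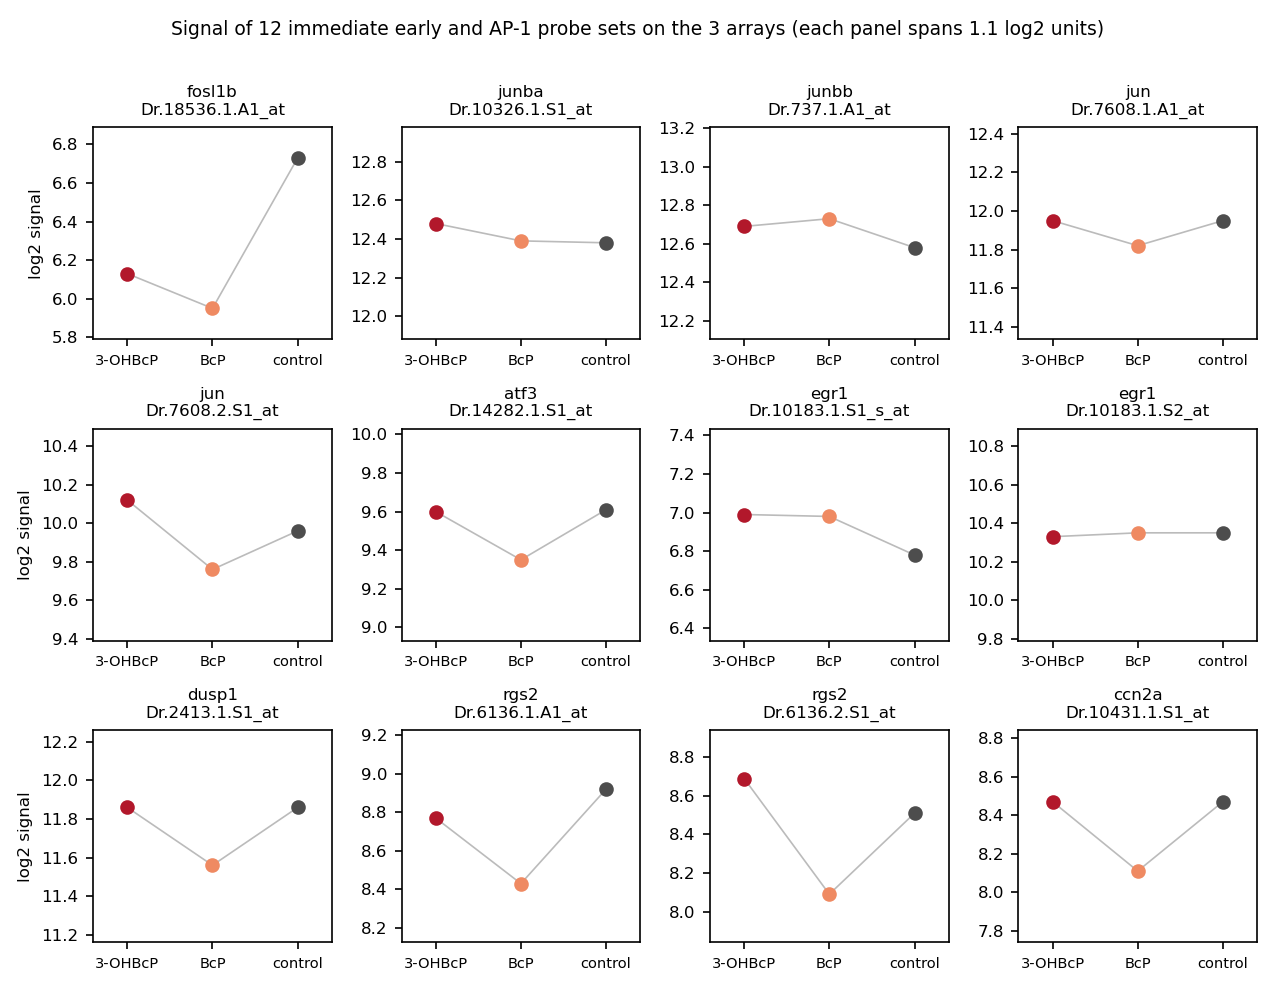
Log2 signal of each of the 12 probe sets (1 panel each, all spanning the same height) on the 3-OHBcP, BcP and control arrays, with 1 point per array and no error bar since each group has 1 array. The control point stands alone at the top for fosl1b, at 6.73 against 6.13 and 5.95. The BcP point is the lowest for fosl1b as well as for rgs2, ccn2a, dusp1, atf3 and jun.

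The Jun genes, which supply the other side of the AP-1 pair, stayed within 1.2-fold of the control on both treated arrays. The more brightly hybridised probe set of jun (Dr.7608.1.A1_at) stood at 11.95 with 3-OHBcP and 11.82 with BcP, against 11.95 in the control. The other (Dr.7608.2.S1_at) stood at 10.12 with 3-OHBcP and 9.76 with BcP, against 9.96 in the control. Both put BcP lowest, by -0.13 and -0.20 against the control, but they placed 3-OHBcP differently, at exactly 0 and at 0.16. Against BcP, jun was higher with 3-OHBcP by 0.13 and 0.35.

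The JunB genes junba and junbb are duplicates that zebrafish carry in place of the mammalian JunB gene. The junba probe set (Dr.10326.1.S1_at) stood at 12.48 with 3-OHBcP and 12.39 with BcP, against 12.38 in the control. The junbb probe set (Dr.737.1.A1_at) stood at 12.69 with 3-OHBcP and 12.73 with BcP, against 12.58 in the control. For both duplicates the control was the lowest array, with differences of 0.09 and 0.11 for 3-OHBcP and of 0.01 and 0.16 for BcP. After centring the arrays on their medians the BcP difference of junba was -0.03, so its order is not settled.

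Atf3, a stress-induced leucine zipper protein that can pair with Jun and often represses its targets, had 1 probe set (Dr.14282.1.S1_at). It stood at 9.60 with 3-OHBcP and 9.35 with BcP, against 9.61 in the control. The 3-OHBcP and control arrays were nearly level (-0.02) and BcP was lower by -0.26, just short of 1.2-fold (it was 1.196-fold lower), and past it at -0.30 after centring the arrays on their medians.

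Egr1, a zinc finger transcription factor and a classical serum-response gene, had probe sets that did not tell the same story. The dimmer of these (Dr.10183.1.S1_s_at, a probe set type that can bind more than 1 transcript) stood at 6.99 with 3-OHBcP and 6.98 with BcP, against 6.78 in the control. The brighter (Dr.10183.1.S2_at) stood at 10.33 with 3-OHBcP and 10.35 with BcP, against 10.35 in the control. The dimmer probe set thus differed by 0.22 and 0.20 and the brighter by -0.02 and exactly 0, all within 1.2-fold.

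Among the brakes on signalling, dusp1 encodes a nuclear phosphatase that switches off MAP kinases. Its probe set (Dr.2413.1.S1_at) stood at 11.86 with 3-OHBcP and 11.56 with BcP, against 11.86 in the control. Only the BcP array was apart, at -0.30 (1.23-fold lower), and the 3-OHBcP and control arrays held the same deposited value. After quantile normalization that difference was just short of 1.2-fold (-0.26).

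Rgs2 encodes a GTPase-activating protein that shortens signalling through Gq-coupled receptors. One of its probe sets (Dr.6136.1.A1_at) stood at 8.77 with 3-OHBcP and 8.43 with BcP, against 8.92 in the control. The other (Dr.6136.2.S1_at) stood at 8.69 with 3-OHBcP and 8.09 with BcP, against 8.51 in the control. BcP was the low array on both, by -0.49 (1.41-fold lower) and -0.42 (1.34-fold lower). With 3-OHBcP the probe sets went opposite ways from the control, at -0.15 and 0.18.

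That disagreement of 0.33 between the rgs2 probe sets can be set against other genes. Over 638 genes with at least 2 probe sets above the median level, the gap between the brightest pair had a median of 0.094 and a 90th percentile of 0.29 for 3-OHBcP against the control. For BcP against the control the rgs2 gap was 0.07, where the median was 0.099 and the 90th percentile 0.32. The rgs2 gap was thus somewhat below the median gap for BcP and above the 90th percentile for 3-OHBcP.

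Ccn2a encodes a counterpart of connective tissue growth factor, a secreted matrix-associated protein whose gene responds to TGF-beta and to the YAP coactivator. Its probe set (Dr.10431.1.S1_at) stood at 8.47 with 3-OHBcP and 8.11 with BcP, against 8.47 in the control. As with dusp1, the 3-OHBcP and control arrays held the same value and BcP alone was lower, by -0.35.

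Identical values on a pair of arrays are common in the deposited table, so an exact 0 is no precise measure of no change. Among the members 3 of 12 probe sets (jun, dusp1 and ccn2a) were equal on the 3-OHBcP and control arrays. Of all 15502 probe sets 35.8% were, and 32.3% of the 7751 above the median level.

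**Figure D2:**
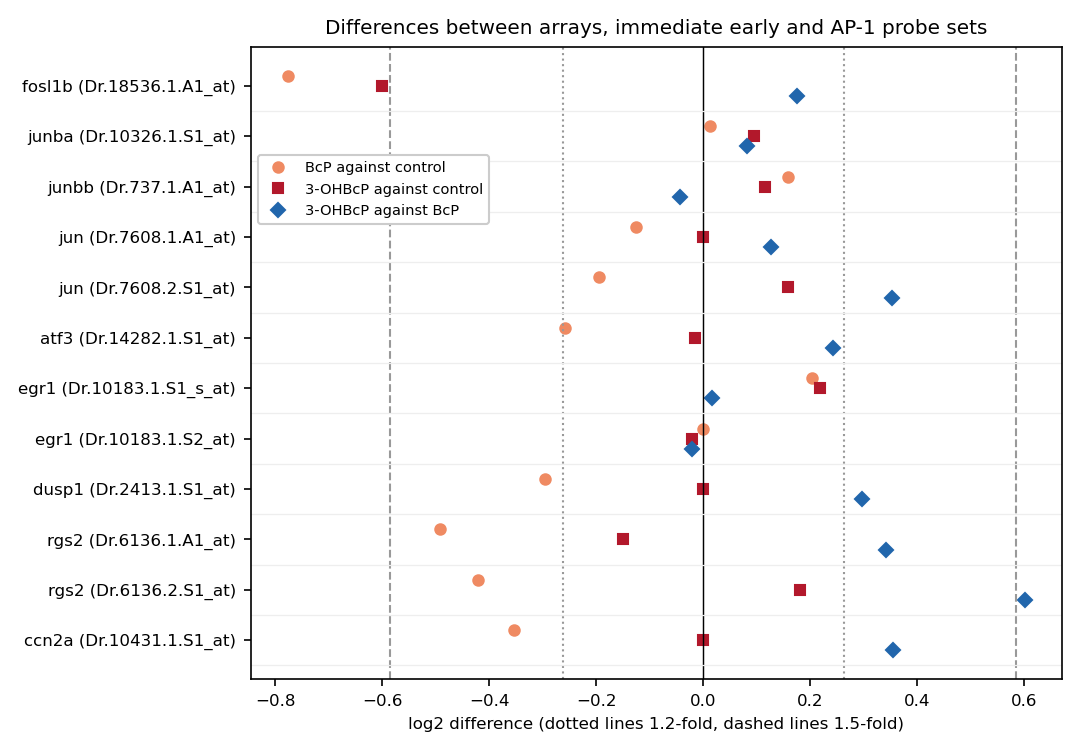
Log2 difference of each of the 12 probe sets in the 3 comparisons (circles BcP against control, squares 3-OHBcP against control, diamonds 3-OHBcP against BcP), 1 value per comparison with no error bar. Fosl1b alone is past 1.5-fold against the control, and the rgs2, ccn2a and dusp1 circles lie beyond 1.2-fold on the lower side.

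Counted over the members, BcP gave lower signal than the control on 8 of 12 probe sets, higher on 3 and equal on 1, with a median log2 difference of -0.23 where that of all probe sets was 0. Of all probe sets 26.1% were lower and 43.3% higher, and of those above the median level 37.4% and 37.0%. At least 1.5-fold apart was 1 member, fosl1b, beside 0.51% of all probe sets. At least 1.2-fold lower were 5 members (fosl1b, both rgs2 probe sets, ccn2a and dusp1), beside 4.4% of all probe sets, and 0 were 1.2-fold higher, beside 5.75%. Of probe sets above the median level, where all members lay, 6.79% were 1.2-fold lower and 3.46% higher. Because some members were picked from this comparison, nothing is read from these counts.

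With 3-OHBcP 4 of 12 probe sets were lower than the control, 5 higher and 3 equal, and the median of the members was 0, as was that of all probe sets. Of all probe sets 28.3% were lower and 35.9% higher (41.4% and 26.3% of those above the median level). Fosl1b was the 1 member at least 1.5-fold apart, beside 0.206% of all probe sets, and also the 1 member at least 1.2-fold lower, beside 3.52%. The next lowest value was -0.15, for rgs2. No member (0) was 1.2-fold higher, beside 3.87%. Of probe sets above the median level 5.43% were 1.2-fold lower and 2.23% higher. The highest member value was 0.22, for egr1. With the trend in level and orientation removed, an alternative chosen after seeing the data, that egr1 probe set was just past 1.2-fold (0.264, the threshold being 0.263). Fosl1b no longer reached 1.5-fold once the arrays were quantile normalized, with an offset of 32 on the linear value, or (at -0.57) with that trend removed. As some members were picked from these same arrays, nothing is read from these counts.

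At matched dose and time, the hydroxylated compound gave, against BcP, higher signal on 10 of 12 member probe sets and lower on 2 (junbb at -0.04 and the brighter egr1 probe set at -0.02). The median was 0.21, where that of all probe sets was 0. Of all probe sets 26.2% were higher and 37.2% lower (27.6% and 41.0% of those above the median level). At least 1.2-fold higher were 5 probe sets, beside 2.61% of all probe sets. These were both of rgs2 at 0.34 and 0.60, ccn2a and the dimmer jun probe set at 0.35 each, and dusp1 at 0.30. None (0) was 1.2-fold lower, beside 2.69%. Of probe sets above the median level 3.81% were 1.2-fold higher and 3.39% lower. The rgs2 probe set Dr.6136.2.S1_at was the 1 member at least 1.5-fold apart (1.52-fold), beside 0.458% of all probe sets, and averaging the rgs2 probe sets left none. The comparisons share the BcP and control arrays, so they are not separate evidence, and no interval can be put on the compounds' differences. With some members picked from these same arrays, nothing is read from these counts.

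Another way to see the members is by which array was lowest. BcP was below both other arrays on 8 of 12 probe sets, which stand for 6 genes (fosl1b, jun, atf3, dusp1, rgs2 and ccn2a). Of probe sets above the median level 20.4% showed that order. Control was below both others on 3, namely those of junba, junbb and the dimmer one of egr1, beside 18.5% of probe sets above the median level. On 2 probe sets (the dimmer ones of jun and rgs2) the compounds stood on opposite sides of the control, beside 15% of those above the median level. Some members were picked for differences on these same arrays, so nothing is read from these orders either.

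**Figure D3:**
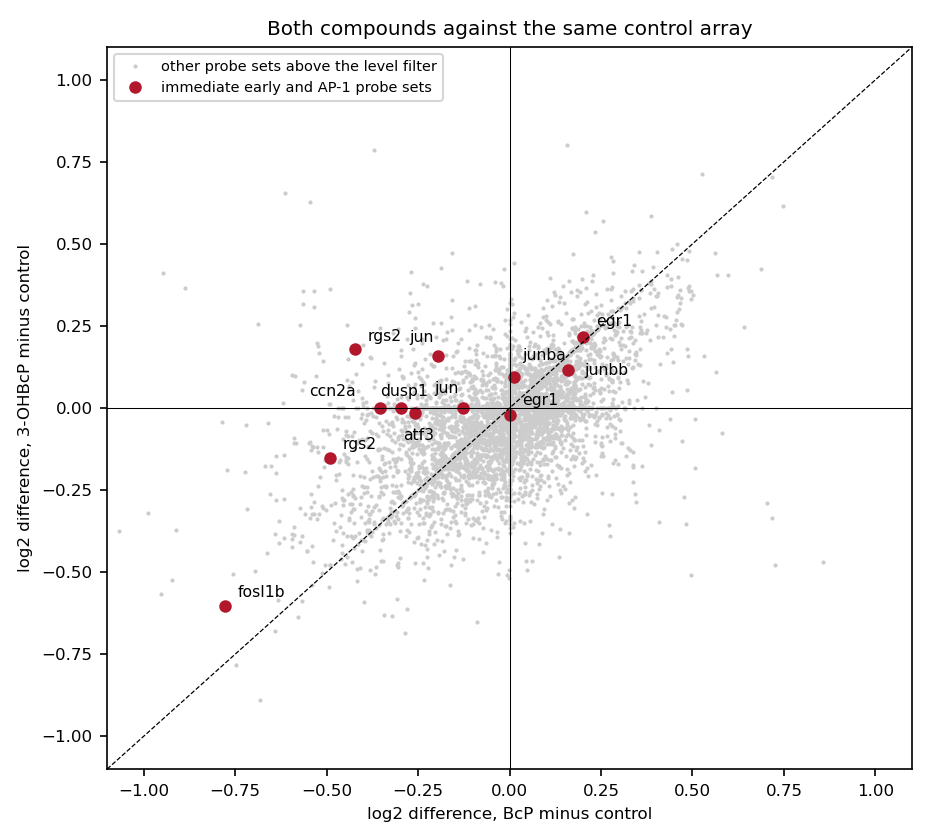
Log2 difference of BcP minus control (horizontal) and of 3-OHBcP minus control (vertical) for the 12 member probe sets (large points) and the other probe sets above the median level (small points), with a dashed line of equal differences. Both axes subtract the same control array, which by itself pulls points along that line, and 4 other probe sets lie beyond the axes. Fosl1b is low on both axes, whereas ccn2a, dusp1, atf3 and jun lie left of 0 and near or above 0 on the vertical axis, and the rgs2 points lie on either side of it.

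The genes most like a member were sought by distance in the pair of differences from the control, among 5247 other named genes with a probe set above the median level. Nearest to fosl1b were slain2 (-0.76 for BcP and -0.51 for 3-OHBcP), ube2d1b (-0.70 and -0.50), slc7a7 (-0.92 and -0.52), rgl1 (-0.95 and -0.57) and hspb8 (-0.66 and -0.44). Their distances were 0.098 to 0.20 log2 units. Nearest to the brighter rgs2 probe set were gclm, which encodes a subunit of the glutathione synthesis enzyme, jag1a, nrg1, fut9b.4 and pbxip1b, all within 0.044. Nearest to ccn2a were tbc1d17, rorab, hnrnpua, si:ch211-202f5.3 and ackr3b, all within 0.026. With 3 arrays such likeness rests on 2 numbers per gene, from 1 probe set each. The rgs2 and ccn2a distances are below the median gap between probe sets of the same gene (0.099 for BcP and 0.094 for 3-OHBcP). That does not make these genes as alike as probe sets of 1 gene. They were picked as the nearest of 5247, and a distance joins both differences where a gap covers 1. The other rgs2 probe set stood elsewhere, at -0.42 for BcP and 0.18 for 3-OHBcP, so these are neighbours of a probe set and not of the gene.

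The rest of the pathway was described with lists of 188 further genes, of which 95 were on the array and 74 above the median level, 1 probe set per gene. None of the 74 was 1.5-fold apart in any comparison (0 in each). Of all probe sets 0.51% were with BcP, 0.206% with 3-OHBcP and 0.458% between the compounds. A count of 0 among 74 is near those shares. At least 1.2-fold lower were 10 with BcP and 6 with 3-OHBcP, and 1 was higher with each. The list median was 0 in all 3 comparisons. Of all probe sets above the median level, 6.79% were 1.2-fold lower with BcP and 5.43% with 3-OHBcP, and 3.46% and 2.23% were higher. By any amount 37.4% were lower and 37.0% higher with BcP, and 41.4% and 26.3% with 3-OHBcP.

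Among the other AP-1 partners 5 of 14 listed genes were on the array and 4 were above the median level. The small Maf gene maff, whose protein pairs with other leucine zipper factors, stood at 7.98 with 3-OHBcP and 7.90 with BcP, against 8.26 in the control. The Fos relative fosl2 stood at 9.41 with 3-OHBcP and 9.34 with BcP, against 9.55 in the control. Maff passed 1.2-fold with each compound (-0.27 with 3-OHBcP and -0.36 with BcP). The 3 probe sets of fosl2, looked at after seeing the values, differed by 0.07, -0.14 and -0.29 with 3-OHBcP and by -0.14, -0.21 and -0.32 with BcP. The repressor-type gene jdp2b differed by 0.05 and 0.07.

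The classical Fos gene fosab gave values that depend on the probe set. Its brightest stood at 12.42 with 3-OHBcP and 12.51 with BcP, against 12.41 in the control. Its other 3 probe sets, looked at after seeing the values, differed from the control by 0, 0.48 and 0.45 with 3-OHBcP and by 0.02, 0.35 and 0.47 with BcP. With BcP 0 of the 4 fosab probe sets were lower than the control (1 after centring the arrays on their medians), and with 3-OHBcP 0 were (2 after centring or quantile normalization). The single probe set of fosl1b was lower with both compounds under every scaling tried. Its differences as deposited, -0.78 with BcP and -0.60 with 3-OHBcP, were too large for these scalings to turn its sign. The kept sign therefore does not show that fosl1b is steadier than fosab. Its 3-OHBcP difference fell short of 1.5-fold after quantile normalization (-0.576), and both differences did with an offset on the linear value.

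In the CREB and ATF list 8 genes were above the median level, 5 of them lower with each compound. That count was 4 with BcP and 3 with 3-OHBcP after quantile normalization, and 5 and 6 after centring the arrays on their medians. Of all probe sets above the median level 37.4% were lower with BcP and 41.4% with 3-OHBcP. Cremb was at least 1.2-fold lower with BcP (-0.28) and differed by -0.02 with 3-OHBcP. The stress-response genes atf5b and atf5a were the lowest. Atf5b stood at 6.63 with 3-OHBcP and 6.51 with BcP, against 7.05 in the control. Atf5a stood at 7.13 with 3-OHBcP and 7.30 with BcP, against 7.61 in the control. The highest was atf4a, a mediator of the integrated stress response, at 11.11 with each compound against 10.87 in the control.

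Of 12 EGR, NR4A and KLF genes, nab1a, which encodes a corepressor of Egr proteins, was the lowest with BcP. It stood at 6.27 with 3-OHBcP and 5.80 with BcP, against 6.27 in the control. Klf9, a glucocorticoid-responsive gene, stood at 10.84 with 3-OHBcP and 10.40 with BcP, against 10.58 in the control. Klf4 was the 1 gene of this list at least 1.2-fold higher with 3-OHBcP than in the control (0.28), and klf9 was just short of it (0.2605). Egr2b, a relative of egr1, differed by -0.12 with 3-OHBcP and 0.12 with BcP.

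Of 25 other immediate early genes, 13 were lower with BcP and 9 higher, and 7 were lower with 3-OHBcP and 10 higher. These splits follow the scaling, and nothing is read from them. After centring the arrays on their medians 21 were lower and 4 higher with BcP, and 17 lower and 8 higher with 3-OHBcP. Quantile normalization gave 12 lower and 12 higher with BcP, and 7 and 17 with 3-OHBcP. With the trend in level and orientation removed the counts were 14 and 11, and 7 and 18. The kinase gene plk2b was lowest with both, at 7.06 with 3-OHBcP and 6.94 with BcP, against 7.35 in the control. Zfp36l1b, which encodes a protein that speeds mRNA decay, stood at 10.53 with 3-OHBcP and 10.37 with BcP, against 10.68 in the control. Ier2a stood at 11.27 with 3-OHBcP and 11.40 with BcP, against 11.27 in the control. Irs2a, an insulin receptor substrate gene, was the 1 gene of these 25 1.2-fold higher with 3-OHBcP than with BcP (6.36 against 5.96). In the EGR, NR4A and KLF list nab1a (0.47), klf9 (0.45) and klf4 (0.27) were so too. At least 1.2-fold lower with 3-OHBcP than with BcP were klf11a (-0.28), rgs5a (-0.31) and rps6ka1 (-0.32). Over all lists 4 of 74 genes were thus higher and 3 lower. Of probe sets above the median level 3.81% were higher and 3.39% lower.

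Relatives of dusp1 and rgs2 gave mixed values. Of 7 other MAP kinase brakes 2 were lower and 4 higher with BcP, and 3 lower and 1 higher with 3-OHBcP. After centring the arrays on their medians 4 were lower and 3 higher with BcP, and 7 and 0 with 3-OHBcP. Quantile normalization gave 2 lower and 5 higher with BcP, and 3 and 4 with 3-OHBcP. With the trend in level and orientation removed the counts were 0 and 7, and 3 and 4. Centring lowers every difference from the control, also those at exactly 0, so nothing is read from these splits. None (0) of 7 other MAP kinase brakes was 1.2-fold apart in any comparison, and dusp2 was highest with BcP at 10.44, with 10.21 on the 3-OHBcP array and 10.19 on the control array. Of 3 other RGS genes, rgs5a stood at 8.59 with 3-OHBcP and 8.90 with BcP, against 8.61 in the control, with BcP highest. Rgs4 stood at 7.59 with 3-OHBcP and 7.34 with BcP, against 7.59 in the control, so that it had the order of ccn2a.

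In the CCN and YAP list 4 of 5 genes were lower with BcP (4 or 5 under the alternatives) and 1 was equal. With 3-OHBcP 3 were lower, 1 higher and 1 equal. Centring the arrays on their medians put 5 lower, while quantile normalization gave 3 lower and 2 higher. Of all probe sets above the median level 37.4% were lower with BcP and 41.4% with 3-OHBcP. Ccn1, a close relative of ccn2a and like it a YAP target, stood at 10.93 with 3-OHBcP and 10.72 with BcP, against 10.90 in the control. Ccn2b, the duplicate of ccn2a, stood at 5.54 with 3-OHBcP and 5.65 with BcP, against 5.93 in the control. The coactivator gene yap1 stood at 8.45 with 3-OHBcP and 8.46 with BcP, against 8.78 in the control. Ccn1 thus shared the order of ccn2a with BcP lowest, while ccn2b and yap1 were low with both compounds.

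Upstream of the immediate early genes, 10 MAP kinase and SRF pathway genes were above the median level. With BcP 2 of them were lower than the control and 6 higher, with a median of 0.01. With 3-OHBcP 3 were lower and 3 higher. After centring the arrays on their medians 6 were lower and 4 higher with BcP, and 9 and 1 with 3-OHBcP. Quantile normalization gave 1 lower and 9 higher with BcP, and 3 and 7 with 3-OHBcP. With the trend in level and orientation removed 3 were lower and 7 higher with each compound. These splits therefore follow the scaling, and nothing is read from them. The highest with BcP were map2k2a (0.21) and rps6ka1 (0.20). The lowest with BcP was mapk3, which encodes ERK1, at 9.70 with 3-OHBcP and 9.49 with BcP, against 9.82 in the control. It was the 1 gene of the 10 at least 1.2-fold lower than the control with BcP, and none (0) was with 3-OHBcP.

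**Figure D4:**
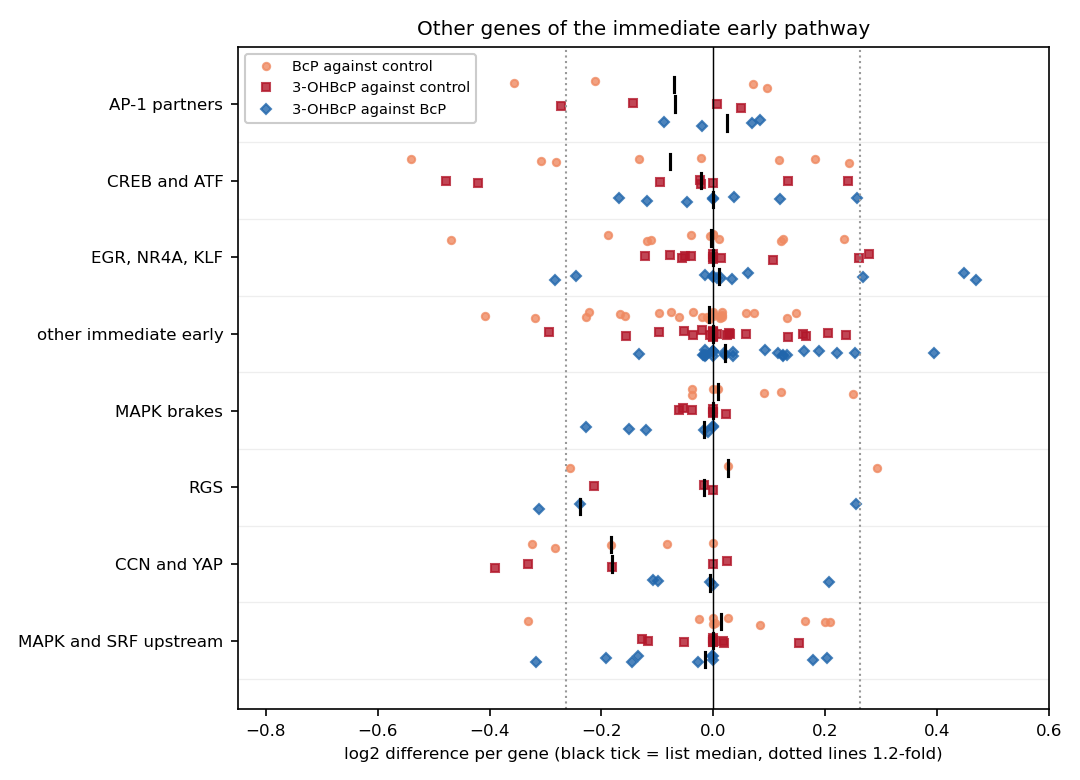
Log2 difference per gene for 8 lists of immediate early pathway genes without the 9 members, 1 point per gene and comparison (circles BcP against control, squares 3-OHBcP against control, diamonds 3-OHBcP against BcP), with list medians as black ticks. No point reaches 1.5-fold, the lowest being atf5b at -0.54 with BcP, and most points lie between the dotted lines at 1.2-fold.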

How the data were processed

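The authors deposited 1 value per probe set for each of 3 GeneChip Zebrafish Genome arrays, and the submitters' processing notes name Affymetrix Expression Console. Its version, algorithm and normalization are not stated there. The range of the deposited values was taken to mean a log2 scale. They were used with no further scaling. The 115 array control probe sets were left out. Symbols came from the platform annotation, updated through gene identifiers to a RefSeq table of assembly GRCz12tu, used for names alone (10711 of 10795 probe sets with 1 symbol matched, 135 had several symbols and 4572 none).

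Log2 differences between arrays were computed with pandas 2.3.3 and numpy 2.4.6, and 1.5-fold and 1.2-fold served as thresholds. With 1 array per group no test was made. The number of arrays limits the precision. Pathway genes were represented by their brightest probe set, kept where its mean reached the median of all probe sets (log2 5.35). Named were all members, the 3 highest and lowest genes of each list as candidates, and the 5 genes nearest to fosl1b, rgs2 and ccn2a. Members and lists were chosen with earlier results of these data known. The code was checked on simulated arrays with little noise and with planted shifts larger than any member difference. That check cannot show how reliable 1.2-fold or 1.5-fold calls are on these arrays. Alternatives were median centring, quantile normalization, 32 added to the linear value, other level filters, probe set kind, averaging of probe sets and, chosen after seeing the data, removal of the trend with level and probe set orientation.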

Additional observations from a re-analysis of the deposited data

How the results depend on the processing

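Over the 12 probe sets, centring each array on its median turned the BcP sign of junba alone, as did quantile normalization, which also turned the 3-OHBcP signs of atf3 and the brighter egr1 probe set, all below 0.05 in size. Adding 32 to the linear value, or removing the trend with level and orientation, turned no member's sign. Centring put 10 of the 12 below the control with BcP and 7 with 3-OHBcP, in place of 8 and 4, because values near 0 shifted. It lowers every difference from the control, so all equal values become lower. Of probe sets above the median level, 37.4% were lower and 25.6% equal with BcP before centring. With 3-OHBcP 41.4% were lower and 32.3% equal, so nothing is read from the centred counts. Quantile normalization and trend removal moved 3-OHBcP the other way, each giving 8 higher and 4 lower, in place of 5 and 4, and trend removal put 1 member (egr1) 1.2-fold higher in place of 0. At least 1.2-fold lower with BcP were 4 to 6 members, in place of 5, and at least 1.2-fold higher against BcP were 4 or 5. The members' median with BcP lay between -0.27 and -0.19 under all alternatives, and that of 3-OHBcP against BcP between 0.18 and 0.24. With 32 added, 0 members stayed at least 1.5-fold apart in each comparison. Quantile normalization, or removing the trend, also left 0 for 3-OHBcP against the control, and averaging the probe sets of a gene left 0 for 3-OHBcP against BcP. Of the pathway genes at least 1.2-fold apart, the level filter at the 75th percentile left 6 in place of 11 with BcP, 4 in place of 7 with 3-OHBcP and 4 in place of 7 between the compounds, since fewer genes were counted. With 32 added, 3 in place of 7 remained apart for 3-OHBcP against the control. Leaving out a replicate was not possible with 1 array per group.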
